A study of Saccharomyces cerevisiae with 4 samples.

Results

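The genes described here code for the proteins of the large (60S) ribosomal subunit of budding yeast, Saccharomyces cerevisiae. They were chosen by name: a gene symbol of the form RPL with a number and an optional A or B, or RPP with 1 digit and an optional A or B, in the probe annotation of the array. The rule found 76 genes, read by 83 probe sets, of which 1, RPP1, codes for a subunit of the RNA-processing enzymes RNase P and RNase MRP and not for a ribosomal protein. RPP1 is described alone and enters no count, which leaves 75 genes of the 5430 analysed. Other genes that match the rule in the reference gene table were not analysed here.

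RNA came from log-phase cultures in YPD, a rich glucose medium, and was hybridised to 4 Affymetrix arrays, 1 for each of 4 groups. The parent strain BY4741 (his3Δ1, leu2Δ0, met15Δ0 and ura3Δ0) was sampled at 30 °C and after 30 min at 40 °C, and a strain labelled hsp30Δ::kanMX in the same background was sampled in the same 2 ways. The design text states the aim as finding genes up- or down-regulated in the deletion strain relative to the control. Each array reads RNA of a whole culture, so fewer cells with a transcript and less of it per cell cannot be told apart, and every value is relative to the other genes on its array.

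A ribosome has a large subunit, which holds the peptidyl transferase centre and the tunnel through which the new protein leaves, and a small subunit, which decodes the mRNA. In budding yeast most ribosomal proteins are encoded by a pair of paralogs, A and B, that arose in an ancient genome duplication and give identical or nearly identical proteins. In growing yeast these genes are among the most highly transcribed by RNA polymerase II, they are switched on together by Rap1, Fhl1, Ifh1 and Sfp1 under the control of the TORC1 and protein kinase A pathways, and their transcripts are known to drop for a time after a heat shock or other stress.

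No group has a replicate, so a difference between 2 arrays has no replicate check. The HSP30 gene gave values of 15.51 and 14.18 log2 units on the BY4741 arrays at 30 °C and 40 °C, and of 15.18 and 15.91 on the 2 arrays labelled hsp30Δ. The deletion is thus not visible in these values. Whether the HSP30 probes lie in the deleted stretch was not checked here, and strain directions are given by the array's label throughout. BY4741 30 °C stands apart from the other 3 arrays: over 5430 genes its Pearson r with them was 0.787 to 0.849, against 0.937 to 0.980 among those 3. Every comparison that uses BY4741 30 °C therefore rests on that array, and the 3 other arrays are also read without it.

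All 75 genes read highest on the BY4741 30 °C array. Their median level there was 14.85 log2 units, against 12.74 on BY4741 40 °C and 12.51 and 12.54 on the hsp30Δ-labelled arrays at 30 °C and 40 °C. In rank among all genes, the median gene of the set stood at percentile 96.5 on BY4741 30 °C, and between 74.7 and 77.6 on the other 3. On BY4741 30 °C, 71 of the 75 genes (94.7%) were at least 2-fold above each of the other 3 arrays, while 13.6% of all genes were. Among those other 3 arrays the 75 genes had a median range of 0.45 log2 units, and 68 of them stayed inside 1 unit. Most genes did so: over all genes the median range was 0.58, with 4384 of 5430 inside 1 unit.

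**Figure D1:**
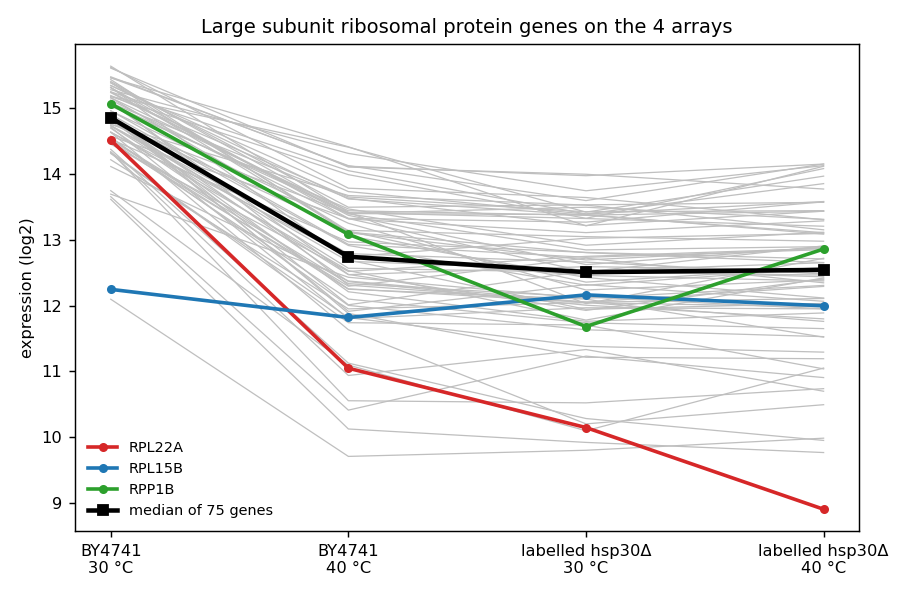
Expression level (log2) of the genes on each of the 4 arrays, 1 array per group. Each grey line is 1 gene, the black line is the median of 75 genes, and RPL41A, at 4.17 to 5.57, is not drawn. The median drops from 14.85 on BY4741 30 °C to between 12.51 and 12.74 on the other arrays, RPL15B stays between 11.82 and 12.25, and RPL22A reaches 8.91.

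In BY4741 the large subunit genes were lower at 40 °C than at 30 °C, in all 75 cases, 71 by at least 2-fold and 0 higher. The median difference was -2.03 log2 units. Of all 5430 genes 18.8% were at least 2-fold lower and 18.9% at least 2-fold higher in this comparison, with a median of 0.13. The difference ran from -0.43 to -3.78 log2 units, so the genes stood on one side of 0 but at very unequal distances.

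Most of the set belongs to A and B pairs, and so did the genes furthest down at 40 °C. With the brightest probe set of each gene, these were RPL13A, RPL6B, RPL22A, RPL27B and RPL9A. Some other genes are read there by a probe set that shares sequence with further genes: by probe sets of their own, RPL18B (-3.65) came second after RPL13A, and RPL8A (-3.28) passed RPL9A (-3.24). RPL13A read 14.33 in BY4741 at 30 °C, 10.56 in BY4741 at 40 °C, and 10.52 and 10.74 on the hsp30Δ-labelled arrays at 30 °C and 40 °C, a 13.7-fold lower level for heat in BY4741. RPL6B read 13.61, 10.13, 9.92 and 9.77 in the same order of arrays and was 11.2-fold lower. Both genes stood high on BY4741 30 °C and nearly level on the other 3 arrays. RPL27B read 14.33, 10.94, 11.33 and 10.70 and was 10.5-fold lower. RPL9A and RPL22A, which were 9.47-fold and 11.0-fold lower, read lower still on the hsp30Δ-labelled arrays and are described with those arrays.

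Of the 4 genes that stayed inside 2-fold for heat in BY4741, RPL15B differed least. It read 12.25 in BY4741 at 30 °C, 11.82 in BY4741 at 40 °C, 12.16 on the hsp30Δ-labelled 30 °C array and 12.00 on that at 40 °C, a span that no other gene of the set matched on these 4 arrays. Its paralog RPL15A read 14.75, 13.67, 13.52 and 13.15 in the same order. RPL41A, which codes for a tiny basic peptide at the interface of the subunits, read lowest, at 5.57, 4.86, 4.17 and 4.62, where the highest fission yeast probe set, a measure of background, read 2.84. RPL1B, for the protein of the mobile L1 stalk beside the exit site for spent tRNA, was just inside the bound at 15.27, 14.31, 13.74 and 14.12, a 1.95-fold lower level. RPL41A and RPL1B are read by shared probe sets alone. The fourth was RPP2B, a stalk protein.

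The stalk recruits the translation factors that split GTP. It is built on RPP0, which carries the acidic proteins from RPP1A, RPP1B, RPP2A and RPP2B, and its base also holds the RPL12 protein. RPP0 read 15.17 in BY4741 at 30 °C, 13.99 in BY4741 at 40 °C, 13.32 on the hsp30Δ-labelled 30 °C array and 14.08 on that at 40 °C. RPP1A read 14.57, 13.32, 12.51 and 12.91, and RPP1B 15.06, 13.08, 11.68 and 12.86 in that order. In all 3 the lowest value was that of the hsp30Δ-labelled 30 °C array. RPP2A read 15.12, 13.31, 13.11 and 13.28, and RPP2B 15.17, 14.40, 13.42 and 13.96, which gives the same order of arrays at both ends. For heat in BY4741 the 5 RPP genes had a median of -1.25 and the other 70 genes -2.09. RPL12A and RPL12B were 4.56-fold and 4.17-fold lower, near the median of the whole set.

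RPL5 and RPL11 bring the 5S rRNA into the subunit as a preassembled particle. RPL5 read 15.34 in BY4741 at 30 °C, 13.73 in BY4741 at 40 °C, and 13.39 and 13.58 on the hsp30Δ-labelled arrays. For heat in BY4741 RPL5 differed by -1.61 and RPL11A by -1.74 log2 units. RPL11B differed by -1.45 by a probe set that shares sequence with other genes and by -2.77 by its own, so its place beside the other 2 depends on the probe set. RPL2 and RPL3 reach toward the peptidyl transferase centre. RPL3 read 15.46, 14.12, 13.59 and 14.15 on the 4 arrays and was 2.52-fold lower, and RPL2B was 5.60-fold lower. RPL2A was 3.61-fold lower by a shared probe set and 6.40-fold lower by its own, which turns its order against RPL2B.

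All 13 genes for proteins that line the exit tunnel or ring its mouth were lower by 2-fold or more, their median being -2.25. RPL25, at the mouth of the tunnel where factors dock on the ribosome, read 15.43 in BY4741 at 30 °C, 13.11 in BY4741 at 40 °C, and 12.69 and 12.87 on the hsp30Δ-labelled arrays. RPL39, a short protein inside the tunnel, read 15.38, 13.13, 12.36 and 12.58. Neither came back to its BY4741 30 °C value on any other array. The widest span among tunnel genes was between RPL17B, which was 7.49-fold lower, and RPL4A, which was 2.06-fold lower but whose probe set is shared with other sequence.

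Of 8 genes for proteins that join the subunit late, in the cytoplasm, 7 were lower by 2-fold or more, their median being -1.77. RPL10, whose protein is added near the end of maturation, read 15.31, 13.32, 13.27 and 13.57 in the order BY4741 30 °C, BY4741 40 °C, labelled hsp30Δ 30 °C and labelled hsp30Δ 40 °C. RPL29 read 15.15, 13.06, 12.43 and 12.11, so that it was lowest on the last array. RPL40B, which codes for the ribosomal protein fused to ubiquitin, was 7.98-fold lower, and RPL40A, which codes for the same fusion, 2.83-fold lower. The remaining 41 genes had a median of -2.10, and 39 of them were at least 2-fold lower. RPL30, whose protein can bind its own pre-mRNA and block its splicing, was among them at 15.61, 13.78, 13.64 and 13.30.

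The 11 genes with no paralog spanned little more than 1 log2 unit: all were at least 2-fold lower, between RPP0 at -1.19 and RPL25 at -2.32, with a median of -1.89. RPL32 and RPL38 were both 3.70-fold lower and RPL28 was 3.63-fold lower. Every gene past 7-fold in this comparison belonged to a pair, as do all but these 11 of the 75 genes.

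**Figure D2:**
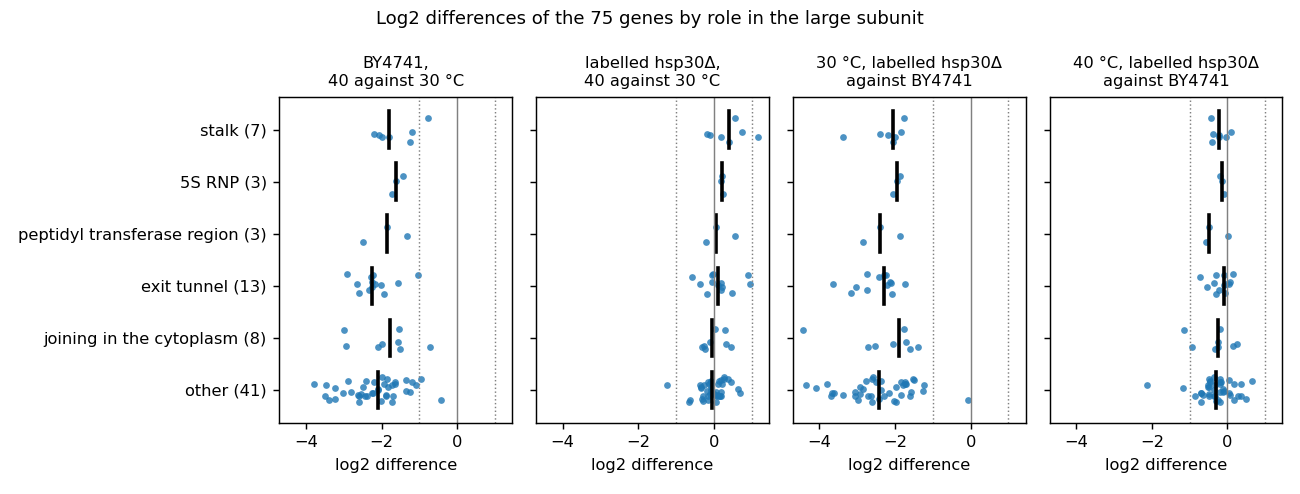
Log2 difference of each of the 75 genes in 4 comparisons, grouped by the role of the protein, with the number of genes in parentheses. Points are genes, black bars are group medians, and dotted lines mark a 2-fold difference. In the 2 comparisons that subtract BY4741 30 °C all groups lie at medians of -1.61 or lower, and in the 2 others they lie around 0.

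At 30 °C the hsp30Δ-labelled array read lower than BY4741 for all 75 genes, 74 of them by at least 2-fold, with a median of -2.29 and 0 higher. Of all genes 21.4% were at least 2-fold lower and 23.2% higher, with a median of 0.11. This comparison subtracts the same BY4741 30 °C array as the heat comparison in BY4741, so the 2 results are not separate observations. RPL40B had the largest difference: it read 14.63 in BY4741 at 30 °C, 11.63 in BY4741 at 40 °C, and 10.20 and 10.50 on the hsp30Δ-labelled arrays, a 21.5-fold lower level at 30 °C. RPL22A was 20.5-fold and RPL9A 17.0-fold lower. RPL15B, at -0.08, was the single gene inside 2-fold.

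Some genes differed far more between labels at 30 °C than between temperatures in BY4741, and others less. RPP1B was 10.4-fold lower between labels and 3.94-fold lower for heat. RPL43B read 15.63, 13.42, 12.03 and 12.72 in the usual order of arrays, which gives 12.2-fold between labels and 4.65-fold for heat. Both lay at least 2-fold lower on the hsp30Δ-labelled 30 °C array than on BY4741 40 °C, the direct measure of that gap. RPL33B went the other way, at 13.65, 10.41, 11.23 and 10.91, with 5.35-fold between labels and 9.44-fold for heat.

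Without the BY4741 30 °C array little of the shift was left. On the hsp30Δ-labelled arrays the 75 genes split evenly between temperatures, 35 lower and 40 higher at 40 °C, with a median of 0.05. Only RPL22A was at least 2-fold lower and only RPP1B at least 2-fold higher, against 1.57% and 1.62% of all genes, so the share of the set was near the background. At 40 °C, 2694 of all 5430 genes were lower on the hsp30Δ-labelled array than on BY4741, with a median of 0.00. Of the 75 genes 58 were lower there, with a median of -0.23. Of these, 3 were at least 2-fold lower (RPL9A, RPL22A and RPL40B) and 0 at least 2-fold higher, against 3.59% and 6.7% of all genes, again a share near the background for the lower side. The hsp30Δ-labelled 30 °C array read lower than BY4741 40 °C for 61 genes, with a median of -0.26. Of all 5430 genes 2825 were lower there, with a median of -0.03. In that comparison 5 genes were at least 2-fold lower (RPL4A, RPL37B, RPL40B, RPL43B and RPP1B) and 0 higher, against 6.19% and 9.34% of all genes.

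RPL22A showed the widest range over the 3 arrays other than BY4741 30 °C, 2.14 log2 units. Its protein sits on the outer surface of the subunit and is not essential for growth. RPL22A read 14.51 in BY4741 at 30 °C, 11.05 in BY4741 at 40 °C, 10.15 on the hsp30Δ-labelled 30 °C array and 8.91 on that at 40 °C. It was thus lower at 40 °C under both strain labels, by -3.46 and -1.24, and lower under the hsp30Δ label at both temperatures, by -4.36 and -2.14. RPL22B, by contrast, read 12.10, 9.71, 9.80 and 9.99 and did not share the last 2 steps.

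RPL9A, RPL40B, RPL29 and RPL37B followed RPL22A as the lowest under the hsp30Δ label at 40 °C. RPL9A read 14.37 in BY4741 at 30 °C, 11.13 in BY4741 at 40 °C, 10.29 on the hsp30Δ-labelled 30 °C array and 9.95 on that at 40 °C, 2.25-fold below BY4741 at 40 °C. RPL37B read 14.95, 13.25, 12.24 and 12.39, a 1.81-fold lower level, and RPL40B was 2.20-fold lower. At the other end were RPL37A, at 14.89, 12.01, 12.53 and 12.65, and RPL33B, with differences of 0.64 and 0.49, then RPL38 and RPL34A with 0.35 each and RPL22B with 0.28. None of these 5 reached 2-fold. By its own probe set RPL18B stood above them all, at 0.86, while the shared one gave -0.66.

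Between temperatures under the hsp30Δ label, the genes highest at 40 °C were RPP1B (1.18), RPL4B (0.95), RPL4A (0.90), RPP0 (0.75) and RPL43B (0.69). RPL4, whose long extension lines the tunnel, read 13.74, 11.10, 10.10 and 11.05 for RPL4B and 15.45, 14.41, 13.21 and 14.11 for RPL4A. In each of these 5 genes the hsp30Δ-labelled 30 °C array was the lowest of the 4, which their choice by this difference favours. All 5 RPP genes were higher at 40 °C there, with a median of 0.55 against 0.00 for the other 70 genes, and 1 passed 2-fold. The lowest after RPL22A were RPL14A (-0.67), RPL27B (-0.63), RPL31B (-0.58) and RPL15A (-0.37). RPL14A read 14.33, 11.74, 11.70 and 11.04, so that its lowest value was on the last array.

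For 56 of the 75 genes both arrays labelled hsp30Δ lay below both BY4741 arrays, against 22.5% of all genes. Since BY4741 30 °C was the highest array for every one of them, this count rests on BY4741 40 °C alone. Of all 5430 genes only 1886 read highest on BY4741 30 °C, so the 22.5% is not a like-for-like background. RPL40B was the single gene of the 75 with both hsp30Δ-labelled arrays at least 1 log2 unit below both BY4741 arrays. Both 40 °C arrays lay below both 30 °C arrays for 9 of the 75, against 9.5% of all genes.

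The one test the 4 arrays allow is limma with strain label and temperature as additive terms. Each term is the mean of 2 single differences, which need not be alike, and 1 of them always uses BY4741 30 °C. For RPL13A the strain label term was -1.81, from -3.81 at 30 °C and 0.18 at 40 °C. The fit has 1 residual degree of freedom per gene, and any unequal heat response of the 2 labels adds to its error. For temperature 0 of the 75 genes passed a Benjamini-Hochberg adjusted p of 0.05, as 0% of all genes did, and at an unadjusted p under 0.05 there were 3 lower (RPL14A, RPL22A and RPL27B) and 0 higher, against 1.05% and 0.958% of all genes. For strain label 0 of the 75 passed, against 0.203% of all genes, with 14 lower and 0 higher at an unadjusted p under 0.05, where all genes had 2.58% lower and 5.62% higher. Of the 75, RPL22A had the smallest p for strain label, with a difference of -3.25 log2 units (SE 0.71) and a limma adjusted p of 0.228. After quantile normalization RPL22A (-3.24, SE 0.67, limma adjusted p 0.0109) and RPL40B (-2.75, SE 0.72, limma adjusted p 0.0463) passed, so the call for these 2 genes depends on the scaling. Of all genes 2.03% passed then, so 2 of 75 is near the background.

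Whether the A and B genes of a pair moved alike depends on the probe sets. Of the 83 probe sets 13 have the suffix _s, which marks sequence shared by several genes, and they supply the value of 13 of the 75 genes. For 7 genes the array has a probe set of each kind. In 6 of these the probe set without a suffix showed the larger decrease for heat in BY4741, RPL20B being the exception, and the median of own minus shared was -0.83 log2 units over the 7. By the probe set of its own RPL11B read 14.34 in BY4741 at 30 °C and 11.57 at 40 °C, and 15.07 and 13.63 by the shared one, so the difference for the same gene was -2.77 or -1.45 log2 units. Pairs are therefore described from probe sets without a suffix, which gives 28 pairs. Near-identical coding sequences may still share signal there, which was not tested.

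**Figure D3:**
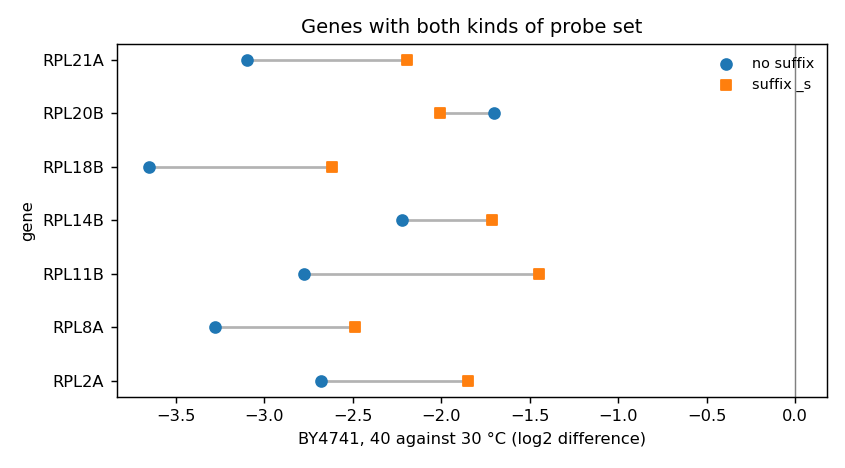
Log2 difference between BY4741 40 °C and 30 °C for the 7 genes read by a probe set without a suffix (circles) and one with the suffix _s (squares). The circles lie further from 0 in 6 of 7 genes, and RPL20B is the exception.

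For heat in BY4741, 12 of 28 pairs differed by at least 1 log2 unit between their A and B genes, with a median gap of 0.78. With the brightest probe set of each gene, shared ones included, the count was 11 of 29. The A gene was the lower in 18 of 28 pairs, by at least 1 unit in 8, and the B gene by at least 1 unit in 4. Among pairs of the small subunit it was the B gene that was lower in 16 of 21, and 6 of those 21 were at least 1 unit apart.

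RPL9, RPL13, RPL33, RPL40, RPL24 and RPL8 were the pairs furthest apart. RPL9A and RPL9B both code for a protein near the base of the stalk. RPL9B read 13.69 in BY4741 at 30 °C, 12.43 in BY4741 at 40 °C, 12.11 on the hsp30Δ-labelled 30 °C array and 12.31 on that at 40 °C, and was 2.40-fold lower for heat in BY4741, against 9.47-fold for RPL9A. RPL13B read 14.90, 12.91, 12.31 and 12.57, a 3.97-fold lower level against 13.7-fold for RPL13A. In both pairs the A gene had the larger difference for heat.

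In RPL33 and RPL40 it was the B gene that was further down. RPL33A read 15.06 in BY4741 at 30 °C, 13.41 in BY4741 at 40 °C, 13.32 on the hsp30Δ-labelled 30 °C array and 13.20 on that at 40 °C, a 3.13-fold lower level against 9.44-fold for RPL33B. RPL40A read 15.60, 14.10, 13.99 and 13.77, which is 2.83-fold against 7.98-fold for RPL40B. RPL24A and RPL24B, for a protein that joins in the cytoplasm, were 7.68-fold and 2.94-fold lower. RPL24A read 14.85, 11.91, 12.32 and 12.06 and RPL24B 14.52, 12.97, 12.81 and 12.71, and in both genes the 3 later values lay close together. By its own probe set RPL8A read 14.59, 11.32, 10.47 and 11.10, and was 9.69-fold lower against 4.25-fold for RPL8B.

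The closest pairs were RPL19, RPL21 and RPL12. RPL19A read 14.73, 12.47, 12.59 and 12.54 and RPL19B 14.80, 12.57, 12.51 and 12.46, so that these 2 genes of the tunnel mouth differed between arrays by nearly the same amounts. RPL21A and RPL21B differed by 0.08 log2 units and RPL12A and RPL12B by 0.13. A close pair is also what shared signal between the 2 genes would give, and its part in these values was not tested.

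**Figure D4:**
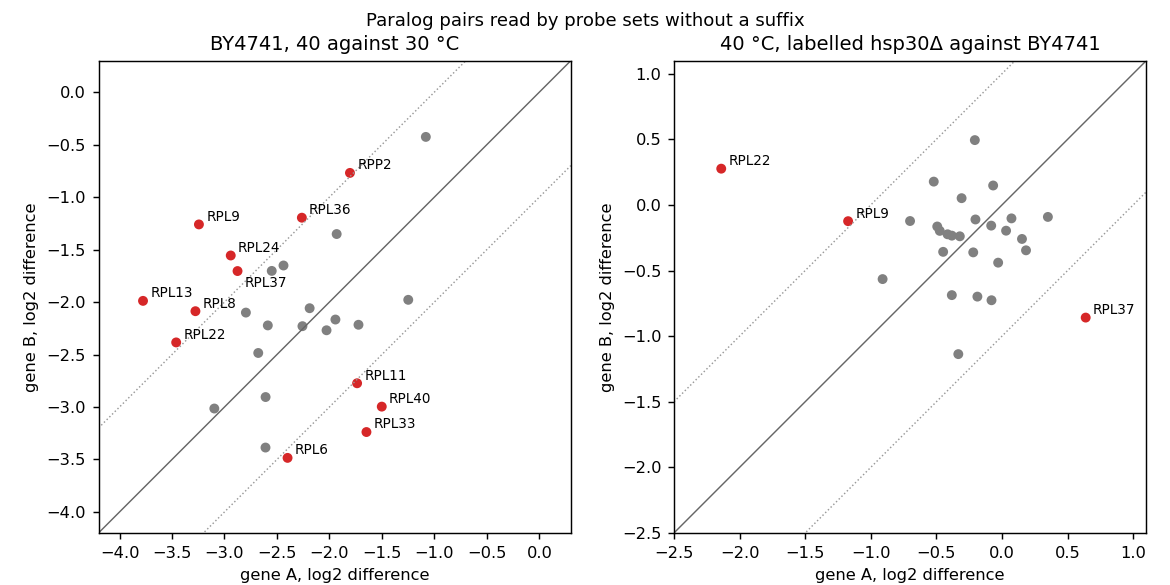
Log2 difference of the A gene (horizontal) and the B gene (vertical) for 28 paralog pairs, for heat in BY4741 (left) and for the hsp30Δ label against BY4741 at 40 °C (right). The solid line marks equal differences, dotted lines mark 1 log2 unit, and pairs at or past it are red and named, 12 on the left and 3 on the right.

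The comparisons without BY4741 30 °C left few such gaps. Under the hsp30Δ label 1 of 28 pairs was at least 1 unit apart between temperatures, RPL22, with -1.24 for RPL22A and 0.18 for RPL22B. Between labels at 40 °C there were 3: RPL22, with -2.14 and 0.28, RPL37, with 0.64 and -0.86, and RPL9, with -1.17 and -0.12. RPL40 came next with -0.33 and -1.14. At 30 °C 9 of 28 pairs were at least 1 unit apart between labels, led by RPL40 (-1.61 and -4.42), RPL9 (-4.08 and -1.58) and RPL22 (-4.36 and -2.29). The strain comparisons at 30 °C and 40 °C use no array in common, and over the 28 pairs their A minus B differences gave Pearson r = 0.52 and Spearman rho = 0.43, with the same sign in 19. For the 2 heat comparisons, which also use no array in common, the values were 0.24 and 0.25, with the same sign in 21. Pairs of 1 array share its scaling, so these are descriptions.

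RPL37 changed order between the strain labels. RPL37A was 7.34-fold lower for heat in BY4741 and RPL37B 3.26-fold lower, while at 30 °C under the hsp30Δ label RPL37A was 5.14-fold and RPL37B 6.58-fold below BY4741. RPL37A had its lowest value on BY4741 40 °C, and RPL37B on the hsp30Δ-labelled 30 °C array. Between temperatures under the hsp30Δ label RPL37A and RPL37B differed nearly alike, by 0.12 and 0.15 log2 units.

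**Figure D5:**
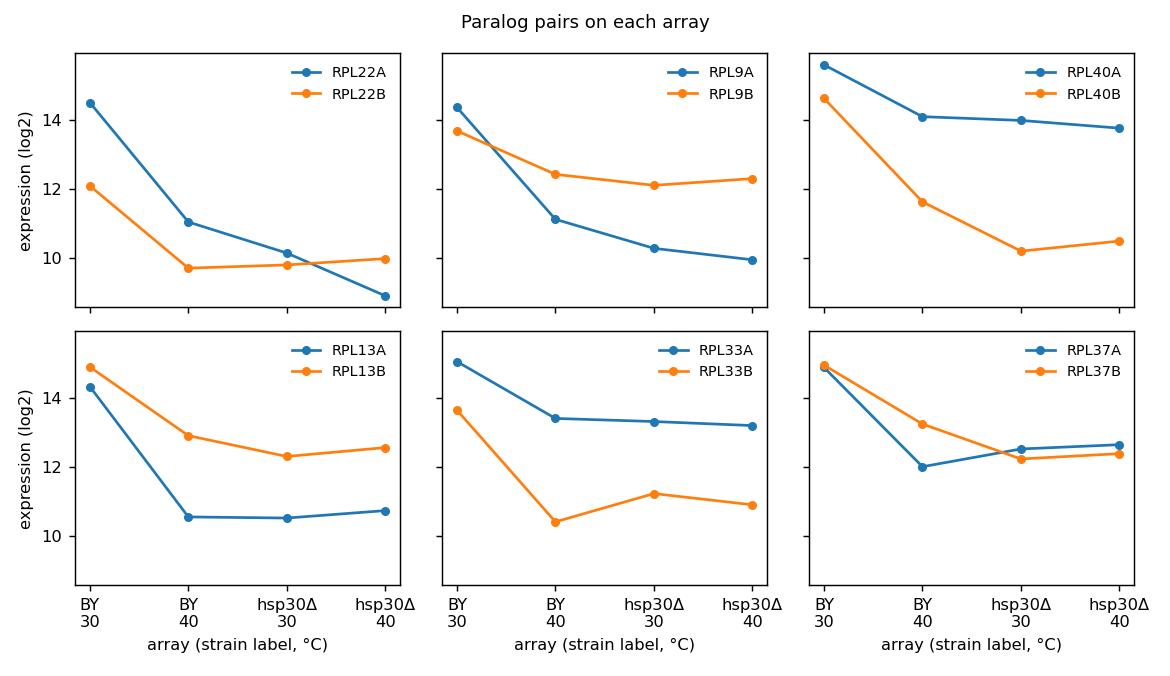
Expression (log2) of the A gene (blue) and the B gene (orange) of 6 pairs on each array, from probe sets without a suffix. Heights of different probe sets are not comparable, only the shape of each line is. After BY4741 30 °C, RPL22A goes on down to 8.91, while RPL22B stays at 9.71 to 9.99. From BY4741 30 °C to the hsp30Δ-labelled 30 °C array RPL40B drops from 14.63 to 10.20 and RPL40A from 15.60 to 13.99.

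On BY4741 30 °C the levels of 74 genes (RPL41A left out) were packed together, with an interquartile range of 0.70 log2 units, against 1.28, 1.26 and 1.19 on the other arrays. On that array 31 of the 75 read within 1 log2 unit of its highest probe set, 16.01, and 0 did on the other 3. Over these 74 genes the level on the hsp30Δ-labelled 40 °C array, which the heat comparison in BY4741 does not use, went with that heat difference. Pearson r was 0.80 and Spearman rho 0.83, against 0.15 and 0.18 over all genes. Genes that read lower there thus tended to differ more for heat, which bears on the role groups, probe sets and pairs above. The part of a limit at the top of the scale in the unequal differences was not tested.

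The small subunit genes, RPS, stood low on the same arrays: 47 of 52 were at least 2-fold lower for heat in BY4741 and 49 of 52 under the hsp30Δ label at 30 °C (median -2.07). At 40 °C between labels their median was -0.27, with 2 lower and 2 higher by at least 2-fold. The difference between the subunits was not tested.

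Genes of the machinery that controls ribosomal protein genes did not follow the ribosomal protein genes for heat in BY4741. Of 17 such genes, listed from general knowledge of the pathway, 1 was at least 2-fold lower and 2 were higher in that comparison, against 18.8% and 18.9% of all genes, with 7 below 0, 10 above and a median of 0.53. Between labels at 30 °C, which subtracts the same array, 14 were above 0 and 3 below (median 0.83), 4 of them at least 2-fold higher and 0 lower against 23.2% and 21.4% of all genes. Between temperatures under the hsp30Δ label 13 were below 0 and 4 above (median -0.28), with 0 past 2-fold in either direction. CRF1, a corepressor that acts at these promoters when TORC1 is low, read 4.49 in BY4741 at 30 °C, 7.43 in BY4741 at 40 °C, and 8.35 and 8.17 on the hsp30Δ-labelled arrays. YAK1, a kinase that acts on Crf1 and is held down by protein kinase A, read 13.34, 14.69, 14.64 and 14.74. Both were lowest on BY4741 30 °C, where the ribosomal protein genes were highest. So were the activator SFP1 and HMO1, SCH9, STB3, ESA1 and DOT6, but not the rest of the list. ABF1, a general factor that binds some ribosomal protein promoters in place of Rap1, read 12.24, 10.03, 11.49 and 10.51, lower at 40 °C under each label. RAP1, FHL1, IFH1, REB1 and TOR1 were also lower at 40 °C under each label. The activators themselves differed less than ABF1 for heat in BY4741: RAP1 by -0.47, FHL1 by -0.32, IFH1 by -0.47 and SFP1 by 0.53. Between temperatures under the hsp30Δ label they differed by -0.96, -0.55, -0.70 and -0.39 in that order, and ABF1 by -0.99. SFP1 read 10.68, 11.21, 12.46 and 12.07, and so was highest on the hsp30Δ-labelled arrays. FHL1, IFH1, CRF1, REB1 and TOR1 were also highest on those arrays.

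RPP1, the RNase P subunit, read 10.38 in BY4741 at 30 °C, 7.60 in BY4741 at 40 °C, 6.33 on the hsp30Δ-labelled 30 °C array and 7.32 on that at 40 °C. It shares only the form of its name with the stalk genes RPP1A and RPP1B, and was 6.89-fold lower for heat in BY4741.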

How the data were processed

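GCRMA and MAS5 are named in the submitters' processing notes, without versions, roles or order. The authors deposited 1 table of log2 values for 5802 probe sets on 4 arrays, used as deposited, with 0 columns of other samples. Precision is limited by having 4 arrays. Of 5515 annotated probe sets 5483 belong to budding yeast genes and 32 to fission yeast, and 287 without a name were left out. A gene was read from its probe set with the highest mean. Values under background, 1.96 (the median over arrays of the 95th percentile of probe sets for fission yeast), were raised to it for single comparisons. A gene above background on at least 1 array was kept. All 75 members were above it on all 4 arrays.

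Single comparisons have no test, and genes at least 2-fold apart were counted. The additive fit used limma 3.58.1 in R 4.3.3 on unfloored values of all genes. It was tested on simulated data in which heat acted alike under both labels. Heat responses that differ between labels, as in these data, were not simulated. Members and lists were chosen with earlier results of these data known. Values were named by a rule: the stalk genes, the 5 extremes of each main comparison, and the furthest and closest pairs. Other values illustrate a role group. Alternatives were quantile normalization, median centring, mean of probe sets, probe sets with no suffix, no floor, no filter, and leaving out members near the top of the scale. No build is named in the sources used here, so no coordinates are given, and promoter and protein sequences were not used here.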

Additional observations from a re-analysis of the deposited data

Results flagged for a closer look

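RPP1B, for a stalk protein, differed in opposite directions between temperatures under the 2 strain labels, by at least 2-fold in each: -1.98 log2 units in BY4741 and 1.18 under the hsp30Δ label. It was the single gene of the 75 to do so. With 1 array per group this difference was not tested. The hsp30Δ-labelled 30 °C array, where RPP1B read 11.68, is the low point of the second comparison, and the first rests on BY4741 30 °C.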

How the results depend on the processing

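Over 6 alternatives for the single comparisons no difference of at least 2-fold changed sign. Of 128 recomputed counts and medians 126 stayed within the bounds set for them, and 2 did not. Under quantile normalization 2 genes of the set passed the additive limma test for strain label, against 0 as deposited; over all genes the calls for strain label were 11 as deposited, 110 after quantile normalization, 3 after centring and 0 with no filter, and the cause was not tested. Leaving out the 3 genes near the top of the scale left 1 pair at least 1 log2 unit apart between the hsp30Δ-labelled 30 °C array and BY4741 40 °C, against 3, because pairs with such a gene drop out. Among single genes 7 of 2205 recomputed differences crossed the 2-fold bound; RPL1B (-1.04) and RPL41A (-1.74) crossed it for heat in BY4741 under quantile normalization. No paired analysis was possible because no group has a second array. RPL18B changed direction between labels at 40 °C with its probe set, from -0.66 by the shared one to 0.86 by its own.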
